A study of Mus musculus with 3 samples.

Results

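The semaphorins with their plexin and neuropilin receptors, and the Eph receptors with their ephrin ligands, were examined in cultured JC cells, a mouse mammary carcinoma line, of which 3 populations were sequenced. Within these families genes were taken by symbol, without regard to their values, but the choice was made with earlier results of these data known. The members numbered 53 of the 55471 features: 20 semaphorins, 9 plexins, 2 neuropilins, 14 Eph receptors and 8 ephrins. JC-WT carries the genotype and treatment label WT. JC-P cells came out of mammary fat pad tumours 14 days after injection. JC-M3 was derived from JC-P in 3 rounds of selection, in each of which cells were given by the tail vein and recovered from lung metastases at 28 days. The treatment label of JC-P reads metastasis, like that of JC-M3, so its fat pad origin rests on the protocol text, which calls these cells parental. All 3 populations have the genotype label WT, were grown in culture, and gave 1 polyadenylated-RNA library each. JC-P and JC-M3 are cells that passed through a host, and how many animals or clones each stands for is not given in the sources used here.

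Semaphorins are secreted or membrane-bound guidance proteins that bind plexins, and most class 3 semaphorins need a neuropilin as the binding partner beside the plexin. Plexins act through a cytoplasmic domain that lowers the activity of small Ras-family GTPases, which changes adhesion and the cytoskeleton. Eph receptors are tyrosine kinases bound by ephrins on neighbouring cells, so that signals pass both ways at a cell contact. Both systems were first described in axon guidance and are also known from vessel growth, epithelial sheets and tumour cell migration.

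Levels are given in TPM, an abundance scaled by gene length and library, so genes can be compared with each other. Read totals worked out from the TPM values were 18093426 for JC-WT, 22132593 for JC-P and 23386413 for JC-M3. Runs of 3 levels without names are in the order JC-WT, JC-P, JC-M3. With 1 library per population no difference could be tested, and each ratio describes a pair of libraries. Genes whose mean over the libraries reached 1 TPM are called measured, and 14527 features were. Ratios are log2 ratios of TPM + 0.5, which shrinks the differences of low genes, and a gene was called higher or lower at 2-fold or more. The values in parentheses after a ratio are its 95% exact (Clopper-Pearson) counting interval, computed for the plain TPM ratio, so a low gene's log2 value can lie outside it. PCR duplicates are not independent molecules, and intervals cover counting error only, not the spread between cultures. Of 12 epithelial markers read against the epithelial-like label, 3 keratin genes were measured. Krt8 stood at 1503, 1873 and 681 TPM and Krt18 at 48.6, 48.5 and 18.4 TPM, while Epcam and Cldn7 had 0 reads and Cdh1 did not exceed 0.83 TPM. In a bulk library, fewer expressing cells and less RNA per cell cannot be told apart.

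Of the 53 genes, 36 were measured. In JC-WT 23 of them reached 10 TPM and 5 reached 100 TPM. The most abundant were Sema7a, Sema3f, Plxnb2, Epha2 and Ephb4, and in each library 1 or 2 genes made up most of the plexin and Eph receptor transcripts. The 17 genes below the filter included 7 with 0 reads in every library: Sema5b, Plxna4, Epha3, Epha4, Epha6, Epha8 and Ephb1. At these depths 0 reads allow levels of up to 0.031 to 0.119 TPM, counting 3 reads over the length of each gene. Epha5 and Epha10 had 0 reads in JC-WT and JC-P, and 3 and 2 reads in JC-M3. The rest were Sema3g, Sema4a, Sema4d, Sema4f, Sema4g, Sema6d, Plxnb3 and Plxnc1.

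**Figure D1:**
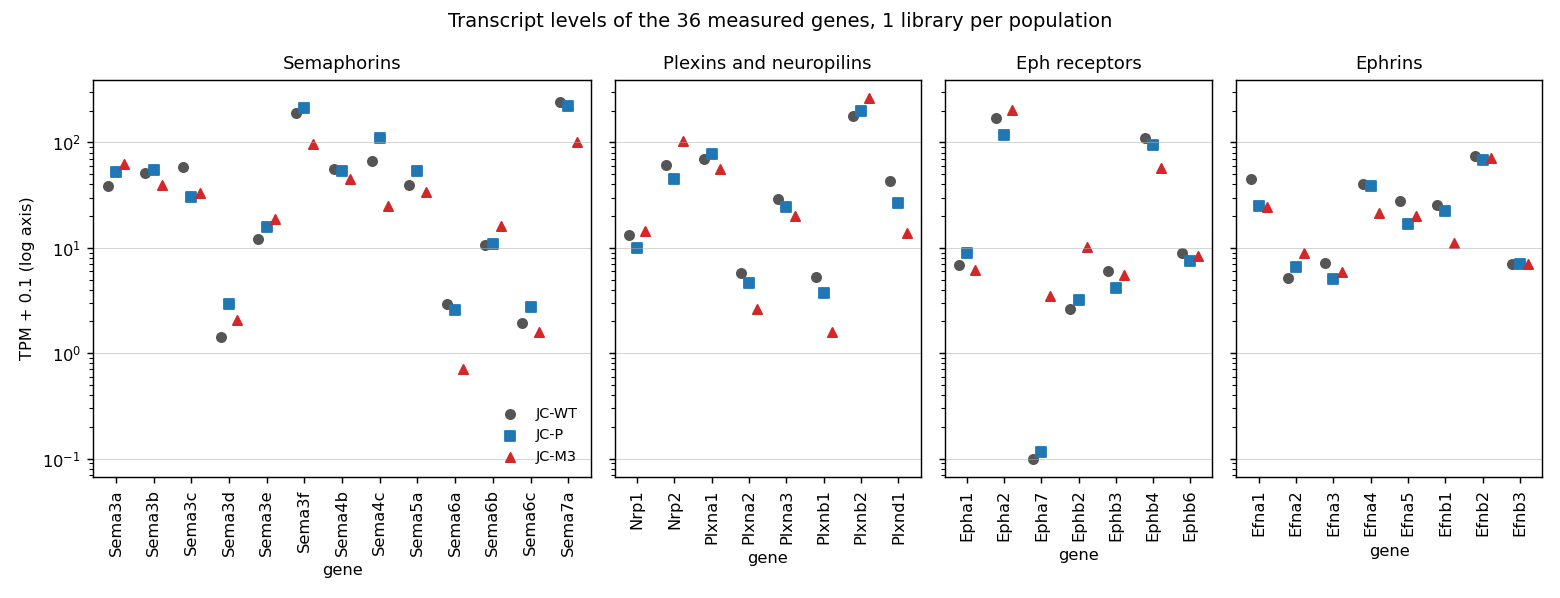
Levels of the 36 measured genes as TPM + 0.1 on a log axis, grouped by family. Each gene has 1 point per library (circle JC-WT, square JC-P, triangle JC-M3) and no error bar, because there is 1 library per population. Epha7 is the gene near the bottom of the axis in JC-WT and JC-P, and Sema7a, Sema3f, Plxnb2 and Epha2 lie near the top.

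In the comparison of fat pad tumour cells with JC-WT, none of the 36 measured genes was called. Among all 14527 measured features, 4.76% were called higher and 2.33% lower in JC-P, 7.1% either way. The counting interval lay above 0 for 11 of the 36 genes and below 0 for 15, or 30.6% and 41.7%, beside 27.2% and 28.1% of all measured features. An interval narrows with more reads, and read numbers were not matched between the genes and all features, here or in the other comparisons. The median ratio of the 36 genes was -0.10, beside 0.01 for all measured features, with 16 genes above 0 and 20 below. The highest ratio was that of Sema3d at 0.87 and the lowest that of Sema3c at -0.93, so the genes nearest to the 2-fold line were both secreted class 3 semaphorins.

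In the comparison of lung-selected JC-M3 with JC-P, 3 measured genes were called higher (Epha7, Ephb2 and Nrp2) and 5 lower (Sema4c, Sema6a, Sema3f, Sema7a and Plxnb1). That is 8.33% higher and 13.9% lower, beside 3.82% and 5.38% of all measured features. Either way it is 22.2% beside 9.2%. Epha7 passed the filter through its JC-M3 level alone, so its call was fixed by the filter, and 2 genes were called higher without it. Counting intervals lay above 0 for 13 genes and below 0 for 18, which is 36.1% and 18 of 36, beside 29.5% and 30.1% of all measured features. The median ratio was -0.14, beside -0.01 over all measured features, and the ratios ran from -2.12 to 2.91. That median was 0.04 with the filter raised to 5 TPM and 0.00 with no filter, so its direction was not kept. The 4 semaphorins were among 13 measured, and 0 semaphorins were called higher.

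In the comparison of JC-M3 with JC-WT, which shares its libraries with both others, 2 genes were called higher (Epha7, again through the filter, and Ephb2) and 7 lower (Plxnd1, Sema6a, Plxnb1, Sema4c, Sema7a, Efnb1 and Plxna2). These are 5.56% and 19.4% of the measured genes, beside 6.14% and 5.27% of all measured features, or 9 of 36 beside 11.4% either way. Counting intervals lay above 0 for 10 genes and below 0 for 18, which is 27.8% and 18 of 36, beside 29.6% and 30.5% of all measured features. The median was -0.25, beside 0.00 over all measured features, and 24 of 36 genes lay below 0. With Epha7 counted, the share of genes called higher was near that of all features, and without it Ephb2 alone was called higher. The share called lower was above that of all features.

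**Figure D2:**
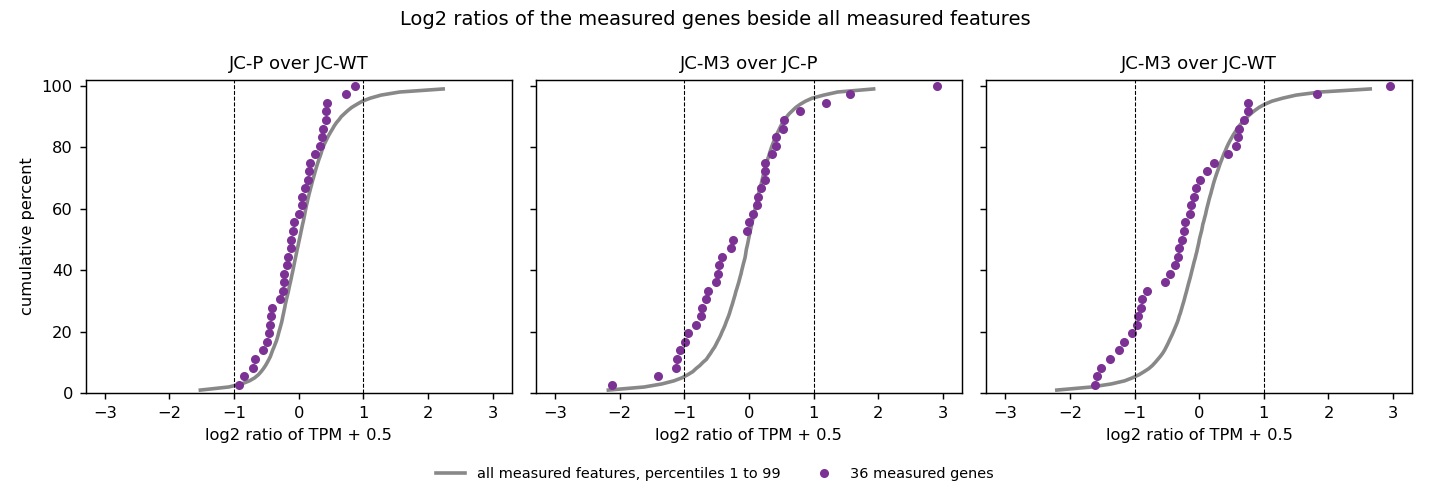
Cumulative distribution of the log2 ratio of TPM + 0.5 in the 3 comparisons. Purple points are the 36 measured genes, the grey line gives percentiles 1 to 99 of all 14527 measured features, and dashed lines mark 2-fold. For JC-P against JC-WT all points lie between the dashed lines, and for JC-M3 against JC-WT 7 points lie at or beyond the left one.

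Promoter windows of 300 bases, from 250 before to 50 after an annotated start, were available from RefSeq (GRCm38.p6) for 47 of the 53 genes. They are shown for Epha7 and Ephb2, which were highest in JC-M3, for Sema4c, with the lowest ratio of JC-M3 against JC-P, and for Plxnd1, with the lowest ratio over JC-WT. Each is written 5′ to 3′ on the gene's strand, with CG pairs in capitals and, where a gene has several starts, at the most upstream one. The windows lie at chr4:28812881-28813180 (plus strand), chr4:136835963-136836262 (minus), chr1:36558332-36558631 (minus) and chr6:115994956-115995255 (minus).
Epha7: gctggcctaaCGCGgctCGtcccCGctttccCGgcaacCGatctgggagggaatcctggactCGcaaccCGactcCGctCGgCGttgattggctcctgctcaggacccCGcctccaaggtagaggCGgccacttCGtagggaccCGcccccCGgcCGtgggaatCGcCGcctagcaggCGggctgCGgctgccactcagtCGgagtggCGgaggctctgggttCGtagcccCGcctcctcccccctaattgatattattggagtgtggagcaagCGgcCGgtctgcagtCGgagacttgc
Ephb2: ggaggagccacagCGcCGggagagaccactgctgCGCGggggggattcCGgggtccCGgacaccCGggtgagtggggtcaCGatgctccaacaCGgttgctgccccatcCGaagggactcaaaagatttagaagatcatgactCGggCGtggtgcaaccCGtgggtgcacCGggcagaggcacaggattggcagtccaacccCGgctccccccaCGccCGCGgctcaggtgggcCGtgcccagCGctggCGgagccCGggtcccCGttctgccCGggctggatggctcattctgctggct
Sema4c: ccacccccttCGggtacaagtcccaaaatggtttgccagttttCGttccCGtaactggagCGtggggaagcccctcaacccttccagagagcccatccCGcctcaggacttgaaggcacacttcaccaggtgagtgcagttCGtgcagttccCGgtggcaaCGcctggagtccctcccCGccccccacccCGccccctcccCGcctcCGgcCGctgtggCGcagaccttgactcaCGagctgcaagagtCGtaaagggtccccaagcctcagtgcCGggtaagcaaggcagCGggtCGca
Plxnd1: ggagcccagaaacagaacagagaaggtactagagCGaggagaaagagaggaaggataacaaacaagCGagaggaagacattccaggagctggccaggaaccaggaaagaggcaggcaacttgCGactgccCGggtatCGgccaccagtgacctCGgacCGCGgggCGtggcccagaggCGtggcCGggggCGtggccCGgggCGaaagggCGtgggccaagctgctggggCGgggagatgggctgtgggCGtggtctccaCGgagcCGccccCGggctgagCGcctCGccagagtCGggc

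These windows hold 28, 24, 19 and 23 CG pairs in the order shown, at percentiles 85.8, 80.0, 71.9 and 78.5 of all windows in the table. The 61 windows of the 47 genes had a median of 20 CG pairs, against 7 in all 32851 windows. The median was 23 in the 39 windows of measured genes and 14 in the 22 windows of genes under 1 TPM. CG-rich windows were still not particular to the transcribed members. The 6 windows of genes with 0 reads in every library had a median of 17.5. They held 14 to 56 CG pairs, the most in Epha8 at percentile 99.8. The letters GGGCGG, which themselves hold a CG pair, occurred on either strand in 75.4% of the 61 windows and in 35.7% of all windows. TATAAA occurred in 1.64% and 13.6%, CCAAT in 32.8% and 37.4%, TGANTCA in 4.92% and 7.81%, and CACGTG in 6.56% and 7.15%. Of the 4 windows shown, the letters TGANTCA occur in that of Sema4c alone, and CCAAT in those of Epha7 and Ephb2. At the low end, the window of Sema3a held 2 CG pairs, although its gene was transcribed at 38.7 to 62.8 TPM. That window lies inside the annotated gene (chr5:13125414-13602565), downstream of its first start.

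The secreted class 3 semaphorins differed among themselves. Sema3f, a neuropilin-2 ligand studied as an inhibitor of tumour spread, stood at 188 TPM in JC-WT, beside 213 for JC-P and 96.8 for JC-M3. The level was lower in JC-M3 than in the other two, with a ratio of -1.13 over JC-P (-1.20 to -1.08) and -0.95 over JC-WT (-1.02 to -0.90), the latter just inside 2-fold. Sema3a, a neuropilin-1 ligand that collapses growth cones, stood at 38.7, 52.8 and 62.8 TPM, lowest in JC-WT and highest in JC-M3. Its ratio was 0.44 for JC-P against JC-WT (0.38 to 0.51) and 0.69 for JC-M3 against JC-WT (0.63 to 0.76). Sema3f therefore exceeded Sema3a 4.86-fold in JC-WT and 4.03-fold in JC-P, but 1.54-fold in JC-M3.

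Sema3e, which binds plexin D1 without a neuropilin, followed the same order at 11.9, 15.7 and 18.6 TPM. Sema3c, a ligand of both neuropilins, was highest in JC-WT, at 58.1 TPM, with 30.3 and 33.0 TPM in the other two libraries. Its ratio for JC-P against JC-WT was -0.93 (-1.04 to -0.84). Sema3b, also studied as a tumour suppressor, stood at 51.0, 54.7 and 39.2 TPM. Sema3d was low throughout, with 61, 160 and 117 reads, and its plain TPM ratio of 2.14 for JC-P against JC-WT passed 2-fold where its ratio with the pseudocount did not. Sema3g had 11, 12 and 24 reads. Added up, the 7 class 3 genes gave 350, 370 and 253 TPM.

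Among the membrane-bound semaphorins, Sema4c had the lowest ratio of JC-M3 against JC-P of all 36 measured genes. Sema4c, a class 4 ligand of plexin B2, stood at 66.2 TPM in JC-WT, beside 110 for JC-P and 24.98 for JC-M3, from 1632, 3318 and 787 reads. JC-P was the highest library and JC-M3 the lowest. The ratio was 0.73 for JC-P against JC-WT (0.65 to 0.82), -2.12 for JC-M3 against JC-P (-2.25 to -2.03) and -1.39 for JC-M3 against JC-WT (-1.53 to -1.28). It was thus 4.33-fold lower in JC-M3 than in JC-P. A transcript on the opposite strand, at 2.44, 2.10 and 0.67 TPM, overlaps 7.27% of its exon bases. The other measured class 4 gene, Sema4b, was nearly level at 56.0, 53.1 and 44.7 TPM, and it was the most abundant class 4 transcript in JC-M3.

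Sema7a, a membrane-anchored semaphorin that acts through integrins and plexin C1, was the most abundant semaphorin in each library. It stood at 239, 220 and 101 TPM. JC-WT and JC-P lay close together and JC-M3 below them, with a ratio of -1.11 for JC-M3 against JC-P (-1.19 to -1.04) and -1.23 over JC-WT (-1.31 to -1.17). Its receptor Plxnc1 was below the filter, with 18, 43 and 17 reads.

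Sema6a, a transmembrane ligand of class A plexins, was low, with 134, 142 and 37 reads. Its ratio was -1.41 for JC-M3 against JC-P, with an interval of -2.57 to -1.47 for the plain ratio. With a pseudocount of 2 it was no longer called in either comparison with JC-M3. Sema6b had the opposite order at 10.5, 10.9 and 16.1 TPM. Sema6d lay just under the filter with a mean of 0.889 TPM and was not counted, though it had 112 reads in JC-WT against 24 and 25 in the other two. Sema5a stood at 39.6, 53.1 and 34.0 TPM, and Sema6c at 1.85, 2.67 and 1.498 TPM.

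All 20 semaphorins together summed to 770 TPM in JC-WT, beside 824 for JC-P and 480 for JC-M3. Plexins summed to 331, 336 and 359 TPM. The ratio of summed plexins to summed semaphorins was thus 0.43 and 0.41 in JC-WT and JC-P, but 0.75 in JC-M3. Krt8 and Krt18 were also lowest in JC-M3, and the 12 epithelial markers, mostly Krt8, summed to 1555, 1923 and 702 TPM. The third measured epithelial marker, Krt7, stood at 1.74, 0.58 and 1.70 TPM, lowest in JC-P. The part of the marker levels in the semaphorin levels was not tested.

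**Figure D3:**
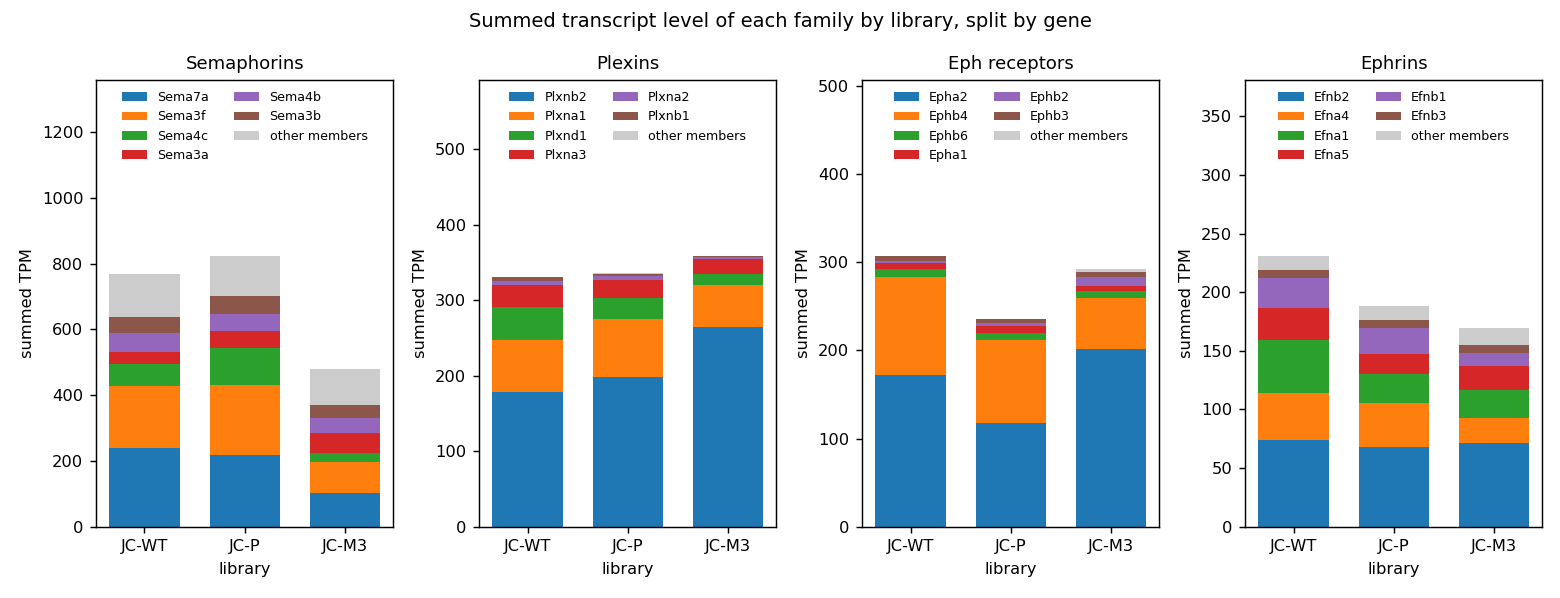
Summed TPM of the semaphorins, plexins, Eph receptors and ephrins in each library, with the 6 genes of highest mean level coloured and the remaining members in grey; bars start at 0 and carry no error bar, because there is 1 library per population. The semaphorin bar of JC-M3 is the lowest of its panel, at 480 TPM, while Plxnb2 fills 53.8%, 59.1% and 73.9% of the plexin bars of JC-WT, JC-P and JC-M3.

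Of the receptors for semaphorins, both neuropilins had their lowest level in JC-P. Nrp2, the partner of Sema3f and a binding site for VEGF-C, stood at 60.3, 44.6 and 102.2 TPM. JC-M3 was the highest library, with a ratio of 1.19 over JC-P (1.14 to 1.26) and 0.76 over JC-WT (0.71 to 0.82). Nrp1, the partner of Sema3a and a binding site for VEGF-A, stood at 13.2, 9.83 and 14.3 TPM and stayed within 2-fold. Nrp2 exceeded Nrp1 4.57-fold in JC-WT, 4.53-fold in JC-P, and 7.13-fold in the lung-selected cells. In JC-M3, then, Nrp2 was at its highest level of the 3 libraries and Sema3f at its lowest.

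The plexins differed by member: of 6 measured, 0 were called for JC-P against JC-WT, 1 was lower in JC-M3 than in JC-P, and 3 were lower in JC-M3 than in JC-WT. Of all measured features 2.33%, 5.38% and 5.27% were called lower in these comparisons. Plxnb2, the receptor of Sema4c, stood at 178 TPM in JC-WT, beside 199 for JC-P and 265 for JC-M3, highest in JC-M3 but within 2-fold (0.42, 0.38 to 0.45, for JC-M3 against JC-P). Plxnb1, the Sema4d receptor that pairs with Met, was far lower at 5.17, 3.65 and 1.47 TPM, from 266, 230 and 97 reads. It was highest in JC-WT and lowest in JC-M3, with a ratio of -1.07 for JC-M3 against JC-P (-1.67 to -0.96) and -1.52 over JC-WT (-2.16 to -1.47). Its call over JC-P was lost with a pseudocount of 2. Its ligand Sema4d was almost undetected, with 5, 8 and 3 reads.

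Plxnd1, the receptor of Sema3e, had the lowest ratio of JC-M3 against JC-WT of all 36 genes. It stood at 42.9, 26.8 and 13.6 TPM, from 1681, 1284 and 683 reads. The levels followed the order JC-WT, JC-P, JC-M3 from high to low. Each single step stayed within 2-fold, at -0.67 (-0.79 to -0.58) and -0.95 (-1.11 to -0.84), and the ratio of JC-M3 against JC-WT was -1.62 (-1.78 to -1.52). Its ligand Sema3e had the opposite order. Plxna2 likewise went from 5.70 to 4.55 and 2.51 TPM, with -1.04 for JC-M3 against JC-WT (-1.39 to -0.97), a call lost with a pseudocount of 2. Plxna1, at 69.5, 77.2 and 55.7 TPM, and Plxna3, at 29.1, 24.5 and 20.1 TPM, are co-receptors of the class 3 semaphorins and stayed within 2-fold.

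Plxnd1, the neuropilins, Ephb4 and Efnb2 are known from endothelium, so endothelial markers were read beside them. Of 12 markers 3 were measured (Cdh5, Plvap and Egfl7), and the list summed to 12.3 TPM in JC-WT, beside 39.4 for JC-P and 5.92 for JC-M3. Kdr and Cldn5 were at 0 reads in every library and Pecam1 did not exceed 0.24 TPM. The highest sum lay in JC-P, but the measured members of the list did not all share that order. Cdh5 and Plvap were called higher in JC-P than in JC-WT, at 4.95 and 1.18, and lower in JC-M3 than in JC-P. Egfl7 was highest in JC-WT, at 4.06, 3.31 and 2.61 TPM, and stayed within 2-fold. Plxnd1 and Ephb4 were highest in JC-WT, and Nrp1 and Nrp2 lowest in JC-P, and the part of endothelial transcripts in these levels was not tested. The 8 fibroblast markers, 6 measured, summed to 174, 371 and 1005 TPM, mostly Col1a1, with Lum and Thy1 at 0. The members of that list did not share a direction: for JC-M3 against JC-P Col1a1 and Col1a2 were called higher, and Col3a1 (3.99, 46.0 and 8.76 TPM), Pdgfra (34.1, 47.6 and 20.1 TPM) and Dpt (2.27, 2.12 and 0.25 TPM) lower. Col1a2, at 0.25, 0.66 and 4.40 TPM, passed the filter through its JC-M3 level alone, so its call was fixed by the filter. The 8 pericyte and smooth muscle markers, 3 measured, summed to 70.9, 55.2 and 736 TPM, mostly Acta2 in JC-M3. Pdgfrb (48.7, 46.5 and 87.9 TPM) and Des (3.67, 5.59 and 6.48 TPM) were highest there but within 2-fold. Rgs5, below the filter, went the other way at 1.97, 0.57 and 0.16 TPM. Cspg4, Myh11, Cnn1 and Notch3 had at most 6 reads in any library. The sums of the fibroblast list and of the pericyte and smooth muscle list were highest in JC-M3, though their members did not all share that order. Nrp2, Plxnb2 and Ephb2 were also highest in JC-M3, and the part of those markers in these levels was not tested. Among myeloid markers Ptprc, Adgre1 and Itgam were at 0, and 3 of 8 were measured. All 8 summed to 70.2, 50.3 and 72.6 TPM, mostly Cd14 (55.2, 42.3 and 62.4 TPM). Lymphoid markers reached at most 0.0948 TPM in sum. For neuron and Schwann cells 2 of 8 markers were measured, and all 8 summed to 10.3, 9.45 and 4.11 TPM. For lung epithelium 1 of 6 was measured, and all 6 summed to 1.22, 2.91 and 2.52 TPM, with the surfactant genes at 0.

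**Figure D4:**
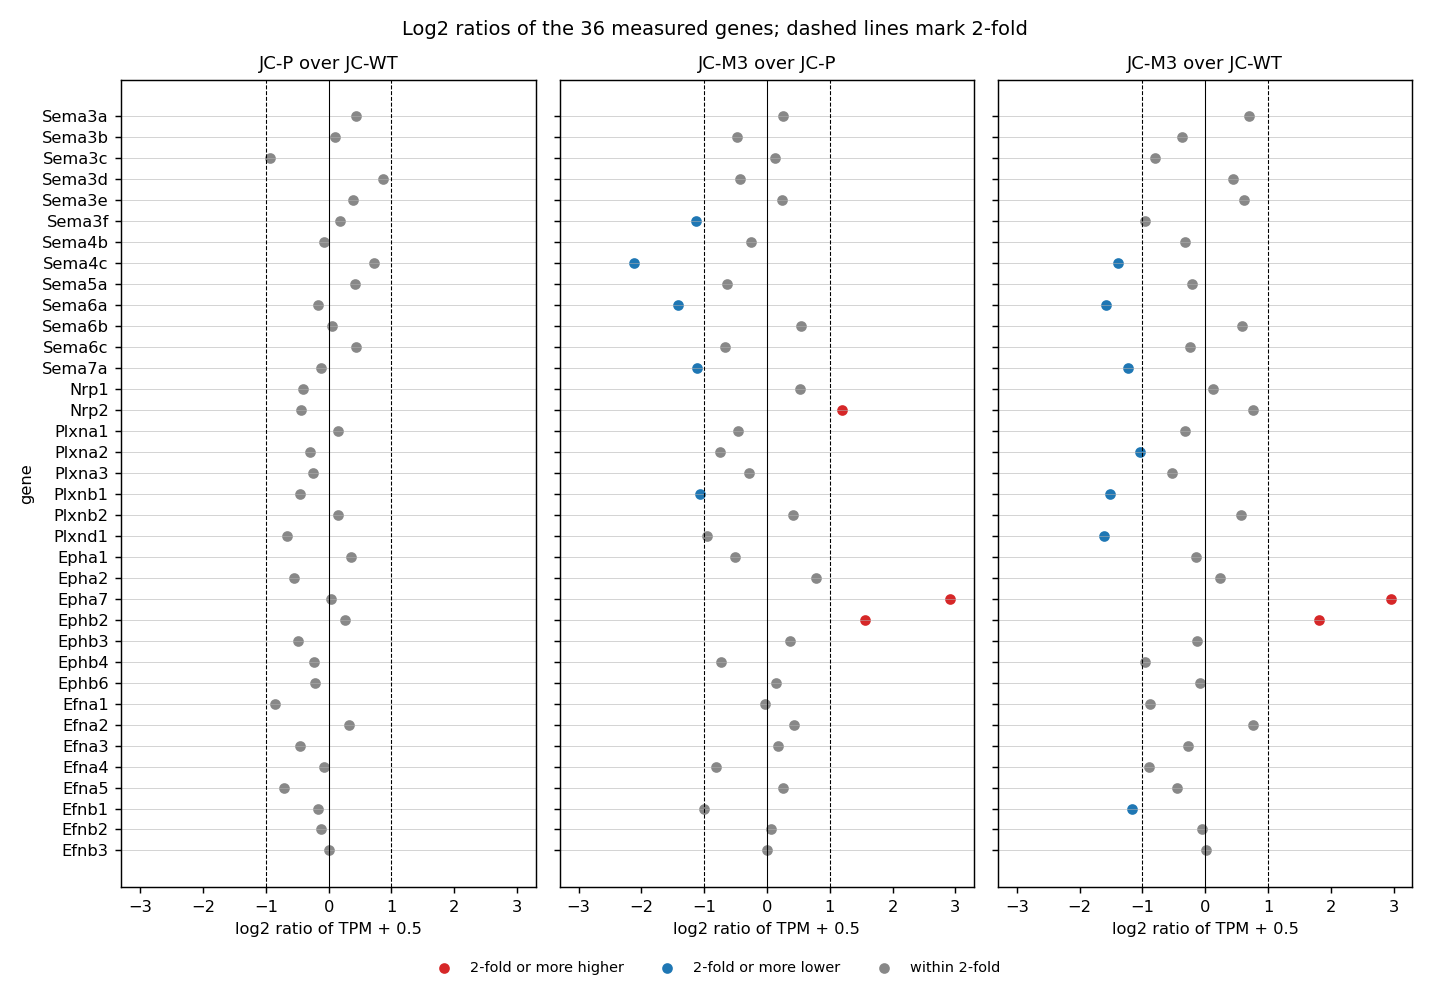
Log2 ratio of TPM + 0.5 for each of the 36 measured genes in the 3 comparisons, with dashed lines at 2-fold. Red points are called higher, blue points lower and grey points lie within 2-fold; the left panel has 0 coloured points, the middle one 8 and the right one 9.

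Eph receptor transcripts were mostly Epha2 and Ephb4. Epha2, an ephrin-A1 receptor common in carcinoma cells, stood at 172, 117 and 202 TPM, lowest in JC-P. Its ratio was -0.55 for JC-P against JC-WT (-0.62 to -0.49) and 0.78 for JC-M3 against JC-P (0.73 to 0.85), both within 2-fold. Ephb4, the ephrin-B2 receptor, stood at 111, 94.7 and 57.0 TPM, lowest in JC-M3, with -0.96 for JC-M3 against JC-WT (-1.05 to -0.88), just inside 2-fold. Epha2 exceeded Ephb4 1.55-fold in JC-WT and 1.24-fold in JC-P, but 3.54-fold in JC-M3. Epha2 made up 69.1% of all Eph receptor TPM in JC-M3, against 56.0% and 49.8% in JC-WT and JC-P.

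Ephb2 was called higher in JC-M3 over both other libraries, as was Epha7, which was counted as measured only because of its JC-M3 level. Epha7, a receptor of ephrin-A ligands, had 0 reads in JC-WT and 1 read in JC-P, but 229 in JC-M3, where it stood at 3.38 TPM. Set against a floor of 3 reads in JC-WT, the JC-M3 level of Epha7 was 59.7-fold higher, a value that leaves out the counting error of JC-M3. The lower limit of its log2 counting interval over JC-WT was 5.59. Against the 1 read of JC-P the plain TPM ratio was 219, and its log2 interval ran from 5.28 to 13.09. Ephb2, a receptor of ephrin-B ligands, had 170, 256 and 874 reads, or 2.51, 3.09 and 10.1 TPM. Its ratio was 1.56 for JC-M3 against JC-P (1.51 to 1.92) and 1.82 over JC-WT (1.77 to 2.25). Both genes were low beside Epha2 even in JC-M3, where Ephb2 made up 3.46% and Epha7 1.16% of Eph receptor TPM.

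The remaining Eph receptors stayed within 2-fold. Ephb3 stood at 5.92, 4.08 and 5.38 TPM, and the kinase-inactive Ephb6 at 8.79, 7.46 and 8.31 TPM. Epha1 stood at 6.74, 8.79 and 6.05 TPM, but 6.01% of its exon bases overlap Zyx on the opposite strand, which stood at 931, 764 and 1084 TPM. The strand setting of the counting is not given, so reads of the pair may not be separable.

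The ephrins were all measured, and 1 of 8, Efnb1, was called, lower for JC-M3 against JC-WT. That is 12.5%, beside 11.4% of all measured features called either way and 5.27% called lower. In the other comparisons 0 ephrins were called, beside 7.1% of all measured features for JC-P against JC-WT and 9.2% for JC-M3 against JC-P. Efnb1, an X-linked ephrin-B, stood at 25.3 TPM in JC-WT, beside 22.5 for JC-P and 11.02 for JC-M3. It was lowest in JC-M3, with -1.16 over JC-WT (-1.42 to -0.98) and -0.996 over JC-P (-1.25 to -0.81), so that over JC-P it lay just inside 2-fold. With a pseudocount of 0.1 (-1.02) or without mitochondrially encoded features (-1.002) that ratio passed the threshold. Efnb2, the Ephb4 ligand and most abundant ephrin, was level at 73.8, 67.8 and 71.2 TPM, with a ratio of -0.05 for JC-M3 against JC-WT (-0.13 to 0.02). Efnb3 was level too, at 6.91, 6.93 and 6.96 TPM.

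Among the lipid-anchored ephrin-A ligands, Efna1, the main partner of Epha2, stood at 44.9 TPM in JC-WT and at 24.6 and 24.1 TPM in JC-P and JC-M3. It was highest in JC-WT, with -0.85 for JC-P against JC-WT (-1.08 to -0.65) and -0.03 for JC-M3 against JC-P (-0.26 to 0.21). Efna4 stood at 40.3, 38.1 and 21.4 TPM, lowest in JC-M3, with an antisense transcript over 10.5% of its exon bases. Efna5 was highest in JC-WT, at 27.7, 16.8 and 20.1 TPM, and Efna2 had its highest level in JC-M3, at 5.07, 6.50 and 8.89 TPM. Efna3 stood at 7.04, 5.00 and 5.75 TPM, with 8.13% of its 50-base windows shared with other genes. An antisense transcript over 14.1% of its exon bases stood at 4.85, 2.31 and 3.40 TPM, in the same order. As the strand setting is not given, reads of that pair may not be separable either. The 5 ephrin-A genes summed to 125, 91.0 and 80.3 TPM and the EphA receptors to 179, 126 and 211 TPM.

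Several members lie side by side in the genome. Sema3a and its neighbour Sema3e, at chr5:14025276-14256689, had near-equal ratios, at 0.44 and 0.38 for JC-P against JC-WT and 0.25 and 0.24 for JC-M3 against JC-P. Sema3d, on the other side of Sema3a at chr5:12383385-12588948, differed from both, with 0.87 and -0.42 in these comparisons. Other neighbours differed too. Efna1, Efna3 and Efna4 occupy chr3:89271733-89338028 (GRCm38, GENCODE M21), yet for JC-M3 against JC-P Efna4 had -0.81 while Efna1 had -0.03 and Efna3 had 0.18. Sema3b and Sema3f lie on chromosome 9 at 107597674 to 107609229 and 107681500 to 107710475, and had -0.48 and -1.13. The 57 measured coding genes within 1 Mb of Sema3f had a median of -0.18 in that comparison, with 40 below 0 and 5 at least 2-fold lower. Sema7a at chr9:57940112-57962865 and Plxnb1 at chr9:109095389-109119917 are on the same chromosome, whose median was -0.03. Sema7a had 28 measured neighbours with a median of -0.13, 5 of them at least 2-fold lower, and Plxnb1 had 38 with a median of -0.09 and 0 of them 2-fold lower. Sema4c, at chr1:36548639-36558349, had 16 measured neighbours with a median of 0.15 and 0 of them 2-fold lower. Ephb2, at chr4:136647539-136835988, had 23 neighbours with a median of 0.16 and 0 of them 2-fold higher, and Epha7, at chr4:28813131-28967499, had 0 measured coding neighbours within 1 Mb. With the median of each chromosome subtracted, an alternative chosen after seeing the data, each call of the 36 genes was kept, and Efna4 (-1.07 and -1.20, for JC-M3 against JC-P and over JC-WT) and Efna1 (-1.19, over JC-WT) passed 2-fold.

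Genes acting with these ligands and receptors were taken from 6 lists of 113 genes, of which 78 were measured. For JC-P against JC-WT 4 were called higher and 1 lower, for JC-M3 against JC-P 3 and 2, and for JC-M3 against JC-WT 2 and 5. Over all measured features the shares called higher and lower in the same comparisons were 4.76% and 2.33%, 3.82% and 5.38%, and 6.14% and 5.27%. The medians of the 78 genes were 0.01, -0.01 and 0.03.

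Of 26 measured genes of semaphorin signalling inside the cell, 0 were called for JC-P against JC-WT and 2 were higher for JC-M3 against JC-P. Tiam1, an activator of Rac, stood at 8.08, 4.54 and 2.18 TPM and was called lower for JC-M3 against JC-WT, at -1.68. The highest ratios of the list for JC-M3 against JC-WT, 0.77 for Farp2, a Rac activator bound by class A plexins, and 0.74 for Mical2, an actin-oxidising enzyme, were within 2-fold.

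Of the 7 measured co-receptors, L1cam, a partner of neuropilin-1 in Sema3a signalling, stood at 0.48, 1.91 and 2.38 TPM and was called higher over JC-WT in both other libraries. Ptk7, a pseudokinase, was lower in JC-M3, at 37.3, 31.0 and 9.88 TPM (-1.60 over JC-P), and the low gene Trem2 stood at 2.79, 1.91 and 0.47 TPM. The integrin subunit Itga1 was called lower in JC-P than in JC-WT, at 3.32, 1.36 and 2.62 TPM, while Itgb1, with which it forms a Sema7a receptor, stood at 564, 747 and 831 TPM. Met, named here after its values were seen, stood at 581, 626 and 590 TPM. Of 5 measured neuropilin growth factor ligands 0 were called, with Vegfc at 21.3, 21.9 and 31.3 TPM and Vegfd at 28.0, 40.4 and 50.7 TPM, both highest in JC-M3, and Vegfb at 81.6, 61.4 and 45.8 TPM, lowest there.

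Of the proteases that process semaphorins and ephrins, 0 of 6 measured genes were called. The highest ratio was that of the rhomboid protease gene Rhbdl2, at 16.8, 21.7 and 30.4 TPM, with 0.84 for JC-M3 against JC-WT. Adam10, which sheds ephrins, stood at 86.9, 124 and 105 TPM, and Furin, which cleaves class 3 semaphorins, at 68.6, 59.2 and 70.0 TPM. Among 20 measured genes of Eph and ephrin signalling inside the cell, Rgs3, an effector of ephrin-B proteins, was called higher in JC-P than in JC-WT (2.41, 7.75 and 4.71 TPM). Rasa1, a Ras inhibitor bound by EphB receptors, was called lower for JC-M3 against JC-WT (45.9, 36.2 and 22.1 TPM, -1.04). Vav3 stood at 42.1, 39.0 and 21.6 TPM, at -0.95 for JC-M3 against JC-WT.

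Among 14 measured genes of the netrin, Slit and RGM families, Ntn1, the netrin-1 gene, stood at 66.7, 138 and 119 TPM, and was called higher in JC-P than in JC-WT at 1.04. Its receptor gene Unc5b stood at 38.7, 30.0 and 67.1 TPM and was called higher for JC-M3 against JC-P at 1.15, lowest in JC-P and highest in JC-M3. Flrt3, an adhesion protein that binds Unc5 receptors, stood at 50.6, 32.7 and 16.6 TPM and was called lower for JC-M3 against JC-WT at -1.58. Flrt1 stood at 0.60, 3.52 and 2.73 TPM.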

How the data were processed

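Bulk RNA sequencing covered 3 JC populations with 1 library each. The authors deposited TPM, a per-gene abundance in which reads are divided by gene length and each library is scaled to about the same sum. Among the tools listed by the submitters' processing notes are STAR 2.7.9a, featureCounts and FastQC 0.11.9, and the builds are mm10 and GRCm38. The annotation release, and whether counting used strand, is not given in the sources used here. Libraries came from a stranded kit, per the labels' protocols.

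From the deposited values, log2 ratios of TPM + 0.5 were taken, with calls at 2-fold among features whose mean reached 1 TPM. Samples were not replicated, so nothing was tested and no p-value was computed. TPM was multiplied by exon length (GENCODE M21, merged per gene) and divided by the value of 1 read, fitted for each library. The result was whole reads, within 0.01 of a read, for 98.4% to 98.5% of expressed features in each library and for all 53 members. These reads gave the intervals and the floor of 3 reads. Exon overlaps and 50-base windows shared with other genes were checked for every member, and motifs were counted on both strands. The members and lists were chosen with earlier results of these data known. Every measured member is named. In each pathway list the genes named were drawn from those called and from the 2 highest and 2 lowest ratios per comparison, and 2 called genes of semaphorin signalling are not reported here. Calls and intervals were run on simulated reads with counting error only, the error that the intervals assume. Such reads cannot cover PCR duplicates or the spread between cultures. Alternatives changed the scaling, pseudocount, filter, threshold and chromosome medians. Computation used numpy 2.4.6, scipy 1.17.1, pandas 2.3.3 and matplotlib 3.10.9 under Python 3.11.15.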

Additional observations from a re-analysis of the deposited data

How the results depend on the processing

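No paired analysis was possible because each population has 1 library. Counts are given as higher and lower, first for JC-P against JC-WT, then for JC-M3 against JC-P, then for JC-M3 against JC-WT. With a 1.5-fold threshold the semaphorin, plexin, neuropilin, Eph and ephrin genes gave 2 and 4, 4 and 12, and 7 and 12, and the pathway genes 4 and 6, 10 and 12, and 11 and 9. Either way the former are 16.7%, 44.4% and 52.8% of the measured genes, beside 18.9%, 23.3% and 26.5% of all measured features. With a 3-fold threshold the counts were 0 and 0, 1 and 1, and 2 and 2 for the former, and 1 and 0, 0 and 1, and 0 and 3 for the latter. With the filter raised to 5 TPM they were 0 and 0, 2 and 3, and 1 and 4, and 1 and 0, 3 and 1, and 0 and 3. These shifts follow from the threshold, or from the fewer genes kept. With a pseudocount of 2 they were 0 and 0, 3 and 3, and 2 and 5, and 3 and 0, 2 and 1, and 0 and 3. With a pseudocount of 0.1, 1 gene was higher in JC-P than in JC-WT (Sema3d), and with no filter on the mean 1 was lower (Sema6d). The share of all measured features was worked out at 1.5-fold either way, but not under the other threshold, filters or pseudocounts. Counts under those settings therefore cannot be read as above or below the share of all features. The median ratio of JC-M3 to JC-P turned from -0.14 to 0.04 with the filter at 5 TPM, where fewer genes were kept. With no filter, which brings in the genes at 0, it was 0.00. Centring on all measured features, or leaving out mitochondrially encoded ones, moved the median of all features by no more than 0.02. Among 108 ratios of single genes, centring changed the sign of 1 and the subtraction of chromosome medians that of 2. Of these 0 were called, and called values lie too far from 0 for such shifts to turn them. Leaving out mitochondrially encoded features changed the sign of 0, and a change of pseudocount cannot change a sign. With chromosome medians subtracted, 18 of the 108 moved by more than the wider side of their counting interval. Depth limits the genes with few reads, such as Epha7 in JC-P.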
